A study of Mus musculus with 3 samples.

Results

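The ATF and CREB genes described here are 10 members of the basic leucine zipper family of transcription factors and their partners (Atf1, Atf2, Atf4, Atf5, Atf6, Atf7, Creb1, Crem, Cebpg and Ddit3), chosen by symbol among the 56980 gene rows of the deposited matrices. All 10 symbols were found, in 11 rows, because Ddit3 is listed under a pair of Ensembl identifiers (ENSMUSG00000025408, and ENSMUSG00000116429 with no UMI in any library). The other identifiers are ENSMUSG00000023027 (Atf1), ENSMUSG00000027104 (Atf2), ENSMUSG00000042406 (Atf4), ENSMUSG00000038539 (Atf5), ENSMUSG00000026663 (Atf6), ENSMUSG00000099083 (Atf7), ENSMUSG00000025958 (Creb1), ENSMUSG00000063889 (Crem) and ENSMUSG00000056216 (Cebpg). The levels come from droplet single-cell RNA sequencing of mouse bone marrow nucleated cells, with 1 library each for mice without irradiation (Control), mice given 6 Gy of gamma-irradiation with solvent (IR) and mice given 6 Gy with cannabidiol (IR+CBD), all taken 14 days after irradiation. C57BL/6 mice were used, and the methods give males for the radioprotection work, while the age of the sequenced animals was not given in the sources used here. CBD, the main non-psychoactive compound of hemp, was injected repeatedly before and after irradiation in soybean oil with DMSO, and the IR mice received that solvent. Each library pooled 3 mice, so the animals cannot be told apart, and its Lin-Kit+, Lin-Kit- and Lin+ cells had been sorted and remixed at 5:4:1, and shares of cells below are shares of that mixture. The question was whether Atf2, which the study examined in hematopoietic stem cells together with Lrp6, moved differently from its relatives. In stem cells the study reported less Atf2 after irradiation and more with CBD, the latter also by quantitative PCR. Staining of phosphorylated Atf2 went the same way. Knock-down of Atf2 in cultured progenitors counteracted the recovery with CBD and lowered Lrp6. These experiments are outside the data used here.

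ATF and CREB proteins bind DNA as pairs through a leucine zipper and are switched largely by kinases. Under amino acid shortage, heme shortage, viral RNA or misfolded protein in the endoplasmic reticulum (ER), kinases of the translation factor eIF2 favour translation of ATF4, which pairs with CEBPG at amino acid synthesis genes and raises DDIT3 (CHOP), a factor linked to cell death. ATF6 is held in the ER membrane and released by misfolded protein, and ATF5 reports on stress in mitochondria. CREB1, ATF1 and CREM answer cyclic AMP and calcium signals, and some CREM isoforms repress the same sites, which counts per gene cannot separate. ATF2 and ATF7 form a subfamily with CREB5, pair with JUN proteins and are activated by the stress kinases JNK and p38. Much of this control acts on the protein, which mRNA counts do not show.

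Promoter sequences from RefSeq (GRCm38.p6, 250 bases before to 50 after each start) were matched by symbol for 8 of the 10 members, with 9 promoters, and no entry was found for Atf6 or Crem. The complete cyclic AMP response element TGACGTCA stood in none of the 9 and in 1.79% of all 32851 promoters. Its half-site TGACG, searched on both strands, stood in 2 of the 9 and in 20.8% of all promoters. The C/EBP-ATF site TGATGNAAT stood in none of the 9 and in 0.965% of all promoters. The CCAAT box, searched likewise, stood in 5 of the 9 (Atf2, Atf4, Atf5, Cebpg and Ddit3, with none in the other Atf5 promoter) and in 37.4% of all. The windows below show the half-sites of Atf1 and Atf4, and for Atf2 the CCAAT box, the sole match of these motifs in the 250 bases before its start. Capitals mark the matched letters, the sequences run 5′ to 3′ along the gene, and the match of Atf4 is the half-site read on the other strand.
Atf2, chr2:73892816-73892844, minus strand: cgtgcttttcgcCCAATcactcgcgtccg
Atf1, chr15:100227757-100227785, plus strand: gtgaccacgcggTGACGcagcacgccggc
Atf4, chr15:80255160-80255183, plus strand: ttcggctttgacCGTCAgagcttt
These matches describe letters in a window and do not show binding.

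Cells with at least 200 genes and at most 5% mitochondrial UMIs (unique molecular identifiers, 1 per captured RNA molecule) were kept. This left 31292 of 36035 barcodes, with 10674, 10345 and 10273 cells in the Control, IR and IR+CBD libraries and 173466089 to 202361682 UMIs per library. UMIs of each gene were summed over cells and expressed as CPM, the gene's UMIs out of each 1000000 UMIs counted in those cells. Gates on raw UMIs took Mpo cells (at least 5, myeloid progenitors), Klf1 cells (at least 2, erythroid), Cd79a cells (at least 2, B lineage), Retnlg cells (at least 5, neutrophils), Siglech cells (at least 3, plasmacytoid dendritic cells) and Cd34 Adgrl4 cells (at least 1 of each). In the 5 gates other than Cd34 Adgrl4, all 5 further markers of the named lineage were above their level in all kept cells in every library. Between 2055 and 2470 cells per library passed more than 1 gate, and 127 barcodes occurred in more than 1 library. In summed UMIs, a lower level can mean fewer cells that express a gene or less RNA per cell, and these cannot be told apart.

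The Cd34 Adgrl4 gate was wider than stem cells. It held 29.2%, 18.9% and 19.2% of the kept cells in Control, IR and IR+CBD, and 69.0%, 87.4% and 83.4% of its cells also passed the Mpo gate. All 6 stem markers examined, among them Hlf, Mecom, Procr, Fgd5 and Meis1, were above their level in all cells, but their summed level was only 1.69, 2.06 and 2.25 times that of all cells. Cells with a UMI of at least 3 of these 6 markers, called stem-marker cells below, numbered 1208, 468 and 567. These stem-marker cells were 11.3%, 4.52% and 5.52% of the kept cells in Control, IR and IR+CBD. Of them, 44.0%, 58.3% and 51.0% also passed the Mpo gate, so they too were wider than stem cells. Their summed level of these markers was 4.34, 6.95 and 6.55 times that of all cells. Because the cells were chosen on the same markers, this rise was fixed in advance and does not measure their purity. Endothelial markers (Cdh5, Plvap, Kdr and Cldn5) summed to 1.57 to 1.91 CPM in the gate, below all cells in each library, with at most 1 of the 4 above its level in all cells. Monocyte markers (Csf1r, Ccr2 and Ly6c2) summed to 466, 675 and 463 CPM there in Control, IR and IR+CBD, and natural killer markers (Ncr1, Klrb1c and Nkg7) to 324, 408 and 455 CPM. Only 1 of the 3 natural killer markers was above its level in all cells in each library. Of the 3 monocyte markers 1, 3 and 2 were. The part of both lists in the results was not tested. Median UMIs per cell in the gate were 27462.5, 32784.5 and 26468.5, and their part was not tested either.

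With 1 library per group no test between conditions could be made. Intervals are 95% and cover counting error only, exact Poisson for CPM and exact conditional binomial for ratios, and they say nothing about differences between mice. A gene was counted as past the fold where its CPM ratio was at most 0.8 or at least the inverse of 0.8, and where the pair of libraries held 50 or more of its UMIs. The 2 comparisons, IR over Control and IR+CBD over IR, share the IR library, so a low IR value enters both in opposite directions. Levels are listed in the order Control, IR and IR+CBD, and a pair of ratios gives IR over Control before IR+CBD over IR.

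Atf2 stayed within the fold in all kept cells and did not stand apart from the family. Its level was 65.0 CPM in Control, 61.8 CPM in IR and 65.8 CPM in IR+CBD, from 12669, 12514 and 11407 UMIs. IR was thus the lowest library, and Control and IR+CBD had overlapping intervals. The IR-to-Control ratio was 0.951 (0.928 to 0.9749), and IR+CBD stood at 1.06 times the IR level (1.04 to 1.09). Among all genes with at least 50 UMIs, the Atf2 ratios stood at the percentiles 47.5 and 71.1. From the highest ratio down, Atf2 was in place 5 of the 10 members for IR over Control and in place 3 for IR+CBD over IR.

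**Figure D1:**
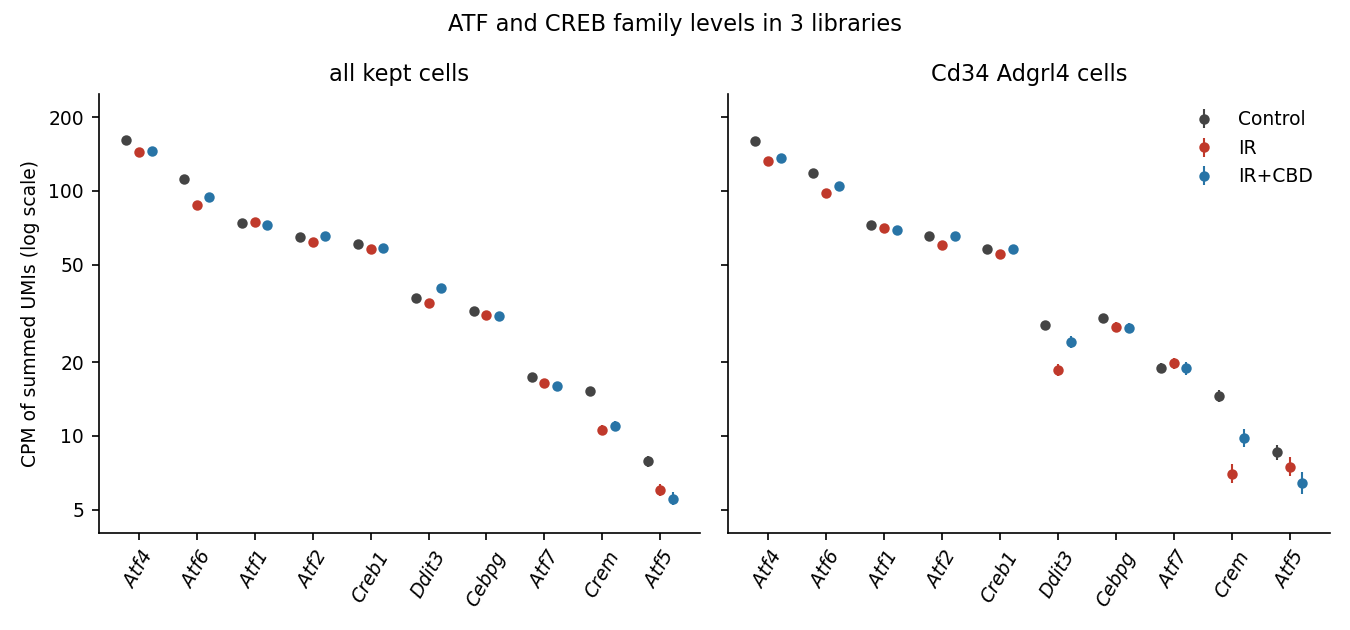
CPM of summed UMIs (log scale) of the 10 members in Control, IR and IR+CBD, in all kept cells (left) and Cd34 Adgrl4 cells (right), with exact Poisson 95% intervals that are mostly smaller than the points. Genes are ordered by their Control level. Atf2 ran from 61.8 to 65.8 CPM in all kept cells, while Crem and Ddit3 dipped in IR in the right panel.

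In all kept cells, 3 of 10 members (Atf5, Atf6 and Crem) were past the fold, all lower in IR than in Control, against 32.1% of 20216 genes tested. None were past it between IR+CBD and IR (0 of 10), against 16.9% of 19857 genes. Neither count stood above its background. The median log2 ratio of the members was -0.08 and 0.01, beside -0.055 and 0.002 for all genes tested.

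**Figure D2:**
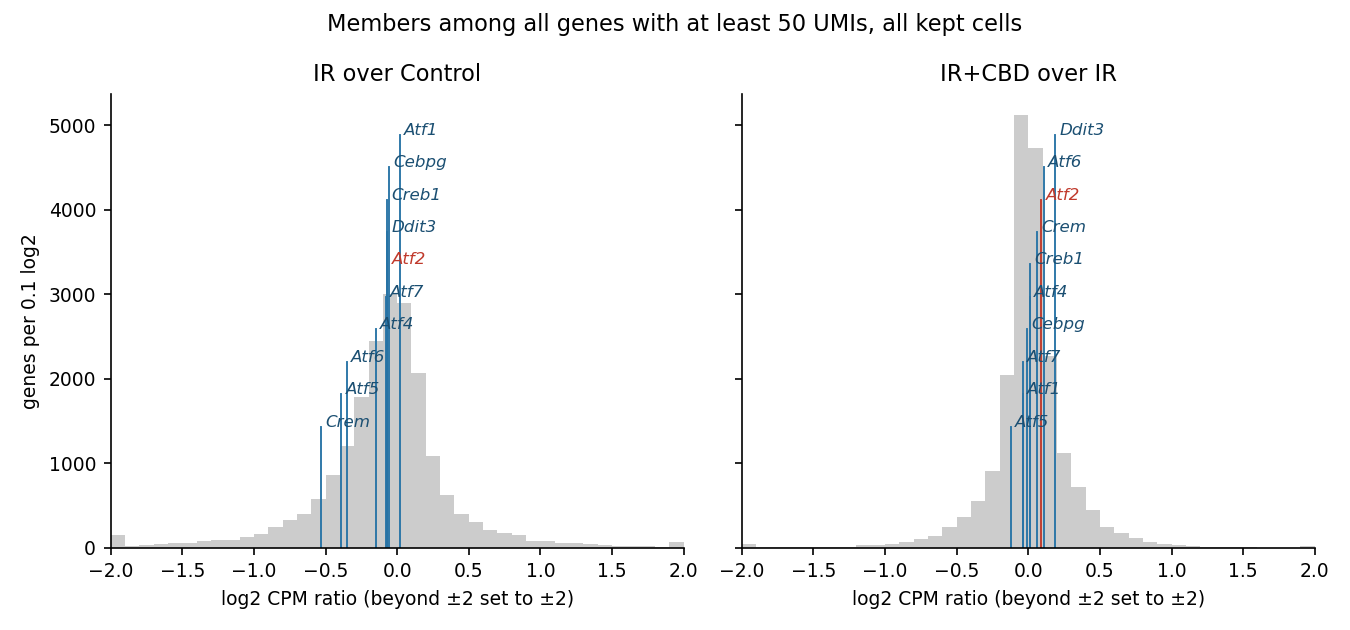
Number of genes per 0.1 log2 of the CPM ratio in all kept cells (grey bars, genes with at least 50 UMIs, ratios beyond ±2 set to ±2), with the 10 members as vertical lines of arbitrary height and Atf2 in red. The members lie inside the bulk of the genes in both panels, and Crem (log2 ratio -0.53, IR over Control) is the member farthest from the centre.

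The cyclic AMP group split. Creb1, the broadly expressed activator of cyclic AMP response genes, had 60.6, 57.9 and 58.5 CPM in Control, IR and IR+CBD in all kept cells, with ratios of 0.955 (0.9304 to 0.979) and 1.01 (0.984 to 1.04). Its decline in IR was close to that of Atf2, and the UMIs of Atf2 per UMI of Creb1 were 1.07, 1.07 and 1.12 in the 3 libraries. Atf1, its close relative, had 74.1, 74.9 and 72.6 CPM, with an IR-to-Control ratio of 1.01 (0.988 to 1.03) where the other 9 members were below 1. This side of 1 was not kept with gates weighted by Control shares (0.925) or with every cell weighted alike (0.928). Crem, which includes repressor isoforms, had 15.3, 10.6 and 11.02 CPM, with ratios of 0.694 (0.656 to 0.734) and 1.04 (0.977 to 1.11) in the same order. Crem was thus lower in both irradiated libraries, which had overlapping intervals.

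Atf7, the member of the list nearest to Atf2 in sequence class, had 17.4, 16.4 and 15.9 CPM. Its ratios were 0.943 (0.899 to 0.990) and 0.970 (0.922 to 1.02), so that its IR+CBD level was not above its IR level as that of Atf2 was. In the GENCODE annotation Atf7 overlaps the readthrough gene Gm28047 on the same strand, and its counts are uncertain for that reason. The UMIs of Atf2 per UMI of Atf7 were 3.73, 3.77 and 4.13, and their ratio for IR+CBD over IR was 1.10 (1.04 to 1.16, log-normal interval).

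The mRNA of all 3 members of the eIF2 branch was lower in IR, with intervals below 1. It had no common direction between IR+CBD and IR. For IR over Control, Cebpg and Ddit3 were close to the median of all genes tested (log2 ratio -0.055), and Atf4 was lower. With median ratio scaling Cebpg was at 0.982. Relative to the other 9 members, Cebpg and Ddit3 were higher in IR than in Control, at 1.06 (1.025 to 1.10) and 1.06 (1.02 to 1.10). Atf4 was at 0.993 (0.974 to 1.01). These mRNA levels do not give the activity of the branch. Atf4, its central factor, had 160.8, 144.7 and 145.5 CPM, with ratios of 0.8996 (0.885 to 0.914) and 1.01 (0.989 to 1.02). Cebpg, its partner, had 32.5, 31.1 and 30.9 CPM, with ratios of 0.958 (0.925 to 0.992) and 0.993 (0.957 to 1.03). Both were thus close to the same level in the irradiated libraries. Ddit3, its target, had 36.7 and 35.0 CPM in Control and IR and 40 CPM (39.07 to 40.95) in IR+CBD, with ratios of 0.954 (0.923 to 0.986) and 1.14 (1.11 to 1.18), the highest ratio of any member for IR+CBD over IR. With every cell weighted alike, the IR-to-Control ratio of Ddit3 was 1.03. Atf2 came after Ddit3 and Atf6 in the order of these ratios. Ddit3 lies antisense to Mars and Gm4189, and no strand setting of the counting was given in the sources used here, so its counts are uncertain where these genes overlap.

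The mRNA of the ER and mitochondrial sensors was lower in IR. Atf6 had 111.7, 87.9 and 94.8 CPM, with ratios of 0.787 (0.771 to 0.803) and 1.08 (1.06 to 1.10). Atf5 had 7.86, 6.01 and 5.54 CPM, with ratios of 0.765 (0.709 to 0.826) and 0.921 (0.846 to 1.00), and its IR+CBD level was the lowest of the 3. Atf5 lies antisense to Nup62 and Il4i1, and Crem to Gm6225, with the same uncertainty. When the gate combinations were weighted by their Control shares of cells in every library, the IR over Control ratio was 0.826 for Atf5 and 0.883 for Atf6, and Crem was the sole member past the fold. With every cell weighted alike, Atf6 was at 0.872, and with the deepest 5% of cells left out or with median ratio scaling it was at 0.808 and 0.807.

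**Figure D3:**
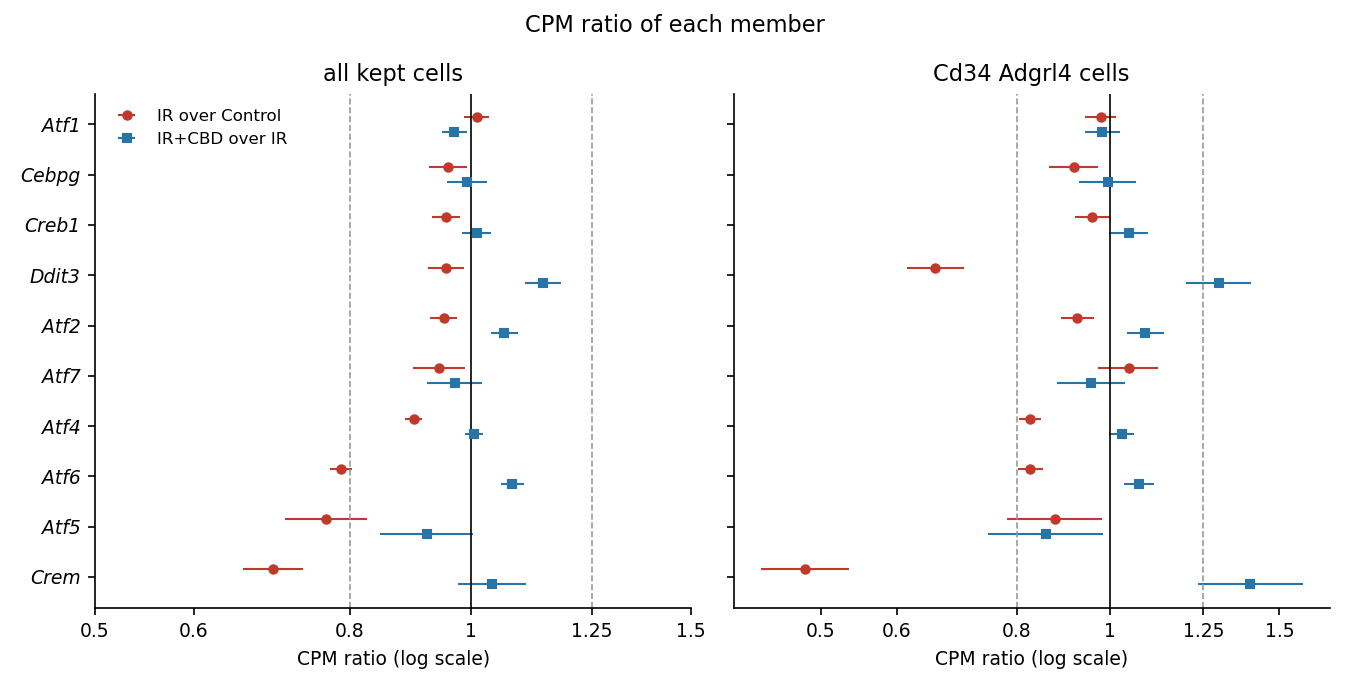
CPM ratio (log scale) of each member for IR over Control (red circles) and IR+CBD over IR (blue squares), in all kept cells (left) and Cd34 Adgrl4 cells (right), with exact conditional binomial 95% intervals and dashed lines at 0.8 and its inverse. In the right panel Crem (0.482 and 1.40) and Ddit3 (0.658 and 1.30) lie outside the dashed lines on both sides, while Atf2 (0.924 and 1.09) lies between them.

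In the Cd34 Adgrl4 cells, 2 of 10 members (Crem and Ddit3) were past the fold for IR over Control, both lower, against 26.5% of 16942 genes tested. Between IR+CBD and IR, Crem and Ddit3 were past it as well, both higher in IR+CBD, against 15.9% of 15945 genes. The 2 comparisons share the IR library and are not separate evidence. Crem had 14.6, 7.01 and 9.81 CPM, from 1382, 471 and 546 UMIs, with ratios of 0.482 (0.433 to 0.535) and 1.40 (1.24 to 1.59). Its IR+CBD level was between the other libraries, with no interval overlapping another. Ddit3 had 28.3, 18.6 and 24.1 CPM, with ratios of 0.658 (0.615 to 0.704) and 1.30 (1.20 to 1.40), also with 3 separate intervals. In the gate without Mpo cells Ddit3 was at 0.812 and 1.18, inside the fold, and without cells in more than 1 gate its IR-to-Control ratio was 0.814, while Crem was at 0.355 and 1.66 without Mpo cells.

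Atf2 in the same cells had 65.3, 60.4 and 65.7 CPM, from 6205, 4057 and 3655 UMIs, with ratios of 0.924 (0.888 to 0.962) and 1.09 (1.04 to 1.14). These stood at the percentiles 38.7 and 72.1 of all genes tested in the gate. Atf4 and Atf6 were lower in IR by more than Atf2, at 0.825 (0.804 to 0.847) and 0.826 (0.801 to 0.852), and their intervals did not reach that of Atf2. Creb1, at 0.958 and 1.05 (0.919 to 0.999 and 0.997 to 1.10), had intervals that overlapped those of Atf2 in both comparisons. Atf1 was at 0.978 and 0.982, Atf7 at 1.05 and 0.955, Cebpg at 0.916 and 0.994 and Atf5 at 0.876 and 0.857. Without Mpo cells Atf5 was at 1.62 and 0.538, which turns the first direction and takes both past the fold. The dip of Atf2 in IR was thus inside the range of its relatives, from 0.482 to 1.05.

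The dip of Atf2 was not seen in the cells with more stem markers. Many of these cells also passed the Mpo gate, so their values are not those of stem cells alone. The stem cell cluster of the study was a far smaller share of its cells, and its values were not computed here. In stem-marker cells Atf2 had 72.1, 74.5 and 75.8 CPM, from 2167, 1144 and 1124 UMIs, and all 3 intervals overlapped. The ratios were 1.03 (0.961 to 1.11) and 1.02 (0.937 to 1.11), and both intervals held 1. Endothelial markers summed to 2.10, 2.60 and 6.00 CPM in these cells, with all 4 above all cells in IR+CBD, and median UMIs per cell were 20058.5, 28887.5 and 22896, and their part was not tested. With Hlf and Mecom each at 1 UMI or more the ratios were 1.00 and 1.02, and in the gate without Mpo cells they were 1.06 and 1.01. For Crem and Ddit3, IR was again the lowest library among stem-marker cells. Crem had 19.0, 8.79 and 12.1 CPM there, with ratios of 0.462 (0.380 to 0.558) and 1.37 (1.09 to 1.73), and Ddit3 had 32.6, 22.7 and 35.1 CPM, with ratios of 0.694 (0.612 to 0.785) and 1.55 (1.35 to 1.78). Atf4 had 159.7, 128.3 and 137.6 CPM, with ratios of 0.803 (0.762 to 0.847) and 1.07 (1.01 to 1.14).

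**Figure D4:**
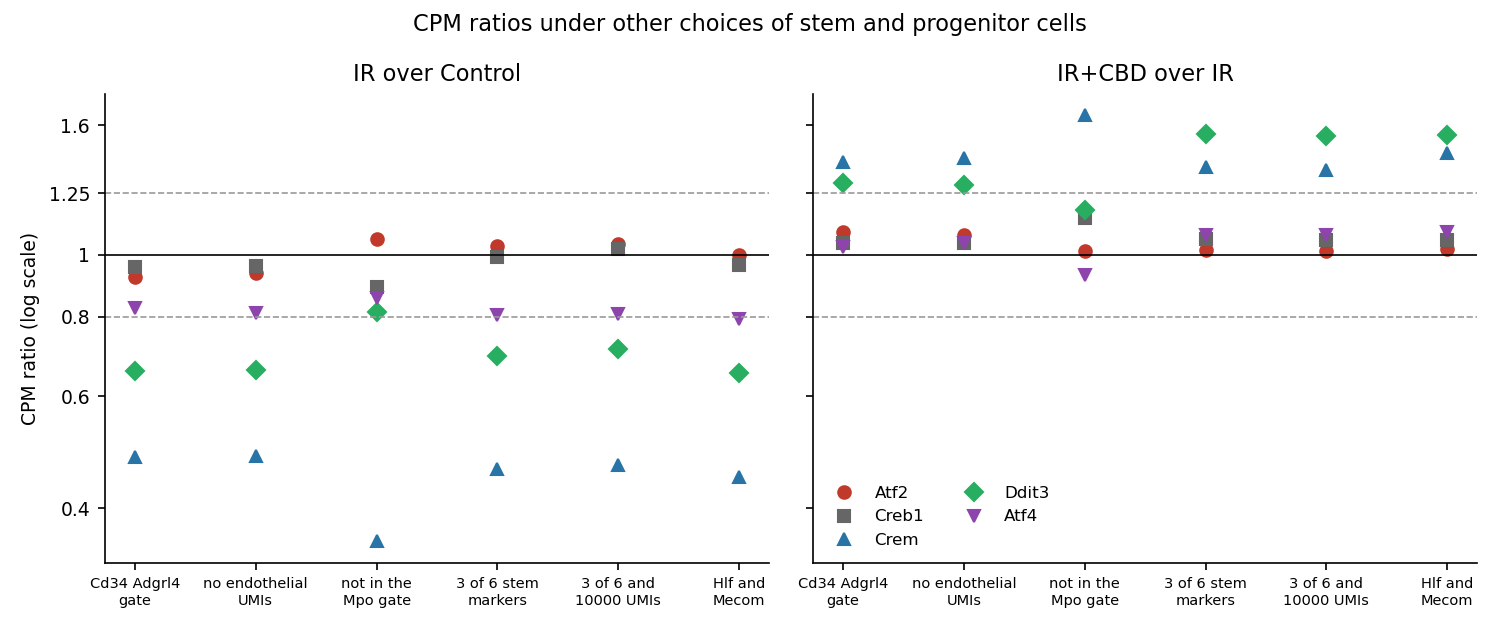
CPM ratios (log scale) of Atf2, Creb1, Crem, Ddit3 and Atf4 in the Cd34 Adgrl4 gate and under 5 other choices of stem and progenitor cells, for IR over Control (left) and IR+CBD over IR (right), with dashed lines at 0.8 and its inverse. Atf2 ran from 0.924 to 1.06 on the left, while Crem stayed below 0.5 in each choice shown.

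As a share of all UMIs of the 10 members, which does not depend on the scaling to library totals, Atf2 took 11.2% (10.99 to 11.4) in Control, 11.7% (11.6 to 11.9) in IR and 12.2% (11.96 to 12.4) in IR+CBD over all kept cells (Clopper-Pearson intervals). The share was therefore higher in IR than in Control although the Atf2 level was lower, as Atf4, Atf5, Atf6 and Crem were lower by more. Relative to the other 9 members, Atf2 in IR was at 1.06 times its Control value (1.03 to 1.09), and in IR+CBD at 1.04 times its IR value (1.01 to 1.07, log-normal intervals). With every cell weighted alike the former was 0.974, on the other side of 1. In Cd34 Adgrl4 cells the shares were 11.4%, 12.1% and 12.6%. In stem-marker cells they were 12.5%, 14.5% and 13.8%, with ratios to the other 9 of 1.19 (1.10 to 1.28) and 0.946 (0.865 to 1.03). For IR over Control there, Atf1 (1.20), Atf7 (1.24) and Creb1 (1.13) also had intervals above 1. Atf4 (0.869), Crem (0.510) and Ddit3 (0.769) were below 1, and the intervals of Atf5, Atf6 and Cebpg held 1. In all kept cells Atf1 was at 1.14, and Creb1, Cebpg and Ddit3 were at 1.06 like Atf2. Atf5, Atf6 and Crem were below 1 there, and the intervals of Atf4 and Atf7 held 1.

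The level of Atf2 differed between gates. In Control and IR+CBD the order ran from Siglech and Cd79a cells, which overlapped, through Cd34 Adgrl4 and Klf1 cells, which overlapped too, to Mpo and then Retnlg cells. In IR the order ran from Cd79a cells through Klf1, Cd34 Adgrl4 and Mpo cells to Retnlg cells, without overlap. Siglech cells of IR, at 61.7 CPM (43.7 to 84.7), overlapped every other gate and could not be placed in this order. The highest gate level was 1.6, 1.62 and 2.14 times the lowest in Control, IR and IR+CBD. Mpo cells had 58.7, 54.9 and 59.6 CPM, with ratios of 0.936 (0.902 to 0.971) and 1.08 (1.04 to 1.13), and Klf1 cells had 63.9, 64.8 and 64.3 CPM with no library apart from another.

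**Figure D5:**
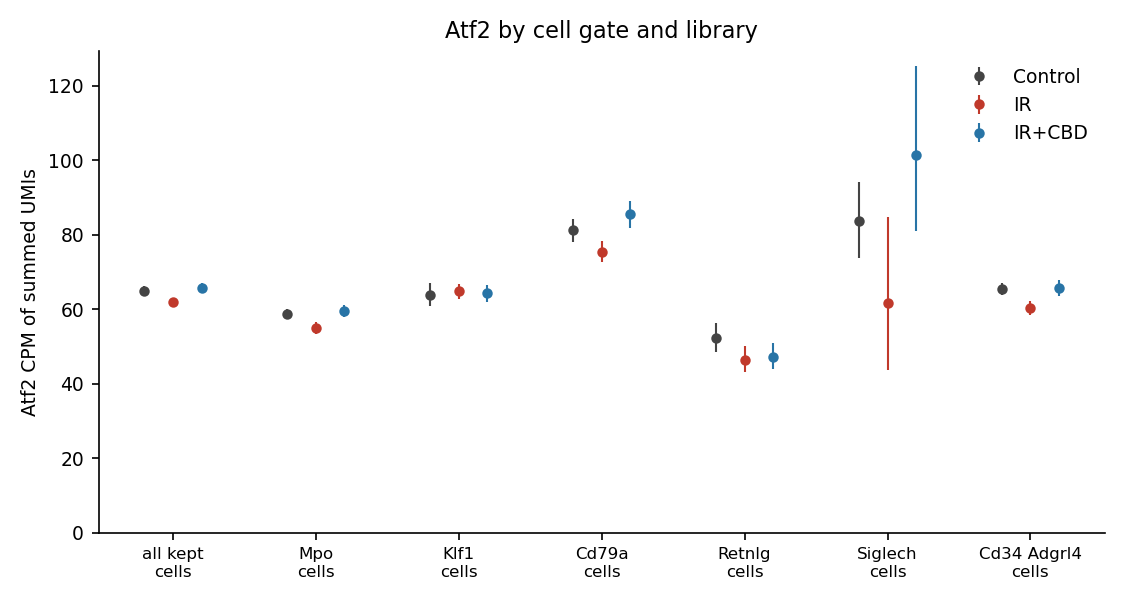
Atf2 CPM of summed UMIs (linear axis from 0) in all kept cells and in the 6 gates, for Control, IR and IR+CBD, with exact Poisson 95% intervals. Levels ran from 46.4 CPM in Retnlg cells of IR to 101.3 CPM in Siglech cells of IR+CBD, where 85 UMIs gave an interval of 80.9 to 125.3 CPM.

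In Mpo cells 3 members were past the fold for IR over Control (Atf5 at 0.774, Crem at 0.705 and Ddit3 at 0.670, all lower), against 21.9% of genes tested, and Ddit3 was past it for IR+CBD over IR (1.29, higher), against 16.2%. Ddit3 had 24.2, 16.2 and 20.9 CPM in these cells, again with IR lowest. Monocyte markers summed to 695, 943 and 728 CPM in Mpo cells, and their part in these values was not tested. Klf1 cells had 0 of 10 members past the fold in both comparisons, against 23% and 14.8% of genes tested. All 10 members ran between 0.829 and 1.07 there.

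Cd79a cells had 0 of 10 members past the fold for IR over Control, against 24.8%, although all 10 ratios were below 1. Between IR+CBD and IR, Ddit3 was past it, higher (68.7, 66.8 and 87.6 CPM, ratio 1.31, 1.24 to 1.39), against 18.6%. The Control and IR levels of Ddit3 overlapped in these B-lineage cells, where IR+CBD stood apart from both. Atf2 in Cd79a cells had 81.2, 75.4 and 85.5 CPM, with ratios of 0.929 (0.880 to 0.981) and 1.13 (1.07 to 1.20), and Atf6 in the same cells had a ratio of 1.20 (1.15 to 1.249) for IR+CBD over IR.

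Retnlg cells had 2 of 10 members past the fold for IR over Control (Atf5 at 0.608 and Crem at 0.765, both lower), against 24.6%, and 0 of 10 for IR+CBD over IR, against 17.5%. Atf2 had 52.3, 46.4 and 47.3 CPM in these cells, with an IR-to-Control ratio of 0.889 (0.799 to 0.989). Without cells in more than 1 gate this ratio was 0.754, without predicted doublets 0.758 and with every cell weighted alike 0.784, all past the fold.

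Of the gates as defined, Siglech cells gave the sole Atf2 ratios past the fold, and the fewest counts. Atf2 had 83.6, 61.7 and 101.3 CPM, from 266, 38 and 85 UMIs in 273, 46 and 79 cells, with ratios of 0.738 (0.511 to 1.04) and 1.64 (1.11 to 2.48). The interval of the ratio for IR over Control held 1, so no difference was detectable at this depth. In these cells 3 of 9 members with enough UMIs (Atf2, Atf7 and Crem) were past the fold for IR over Control, against 40.8% of genes tested. Between IR+CBD and IR, 2 of 7 were (Atf2 higher and Cebpg lower), against 38.2%. Endothelial markers summed to 37.4 to 44.3 CPM in Siglech cells, and monocyte markers to 747, 1614 and 928 CPM in Control, IR and IR+CBD. Neutrophil markers (those of the Retnlg gate) summed to 4902, 17384 and 5172 CPM there, and 1.83%, 8.70% and 3.80% of the Siglech cells also passed the Retnlg gate, where Atf2 was lowest. Their part in these values was not tested.

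Over the 18 values of 6 gates by 3 libraries, log2(CPM + 1) of Atf2 was most like that of Helz, Dcp1a, Ap2b1, Kdm6a and Ubr3 (Pearson r of 0.979, 0.978, 0.977, 0.970 and 0.965), among 14261 genes with at least 500 UMIs. The gates share cells and the values share libraries, so these correlations are a description. Of the relatives, Creb1 was nearest (0.855), followed by Atf4 (0.840), Atf6 (0.809) and Cebpg (0.788). Crem (0.523), Atf1 (0.507) and Atf5 (-0.037) had little of the Atf2 pattern.

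Of 15 other ATF, CREB and BATF genes in all kept cells, 1 was past the fold upward and 5 downward for IR over Control, against 32.1% of all genes, with a median log2 ratio of -0.03. Between IR+CBD and IR, 2 of 14 tested were past it upward and 1 downward, against 16.9%, with a median of 0.02. Creb5, which shares the subfamily of Atf2 and Atf7, had 9.43, 4.09 and 6.24 CPM, with ratios of 0.434 (0.399 to 0.471) and 1.53 (1.39 to 1.67). In stem-marker cells Creb5 had 26.98, 14.0 and 23.5 CPM, with ratios of 0.519 (0.444 to 0.604) and 1.68 (1.41 to 1.998), where the 3 intervals of Atf2 overlapped. Atf3, an early stress response factor, had 46.1, 28.4 and 32.1 CPM in all kept cells, with ratios of 0.616 (0.596 to 0.637) and 1.13 (1.09 to 1.17). Batf2, an interferon-responsive factor of lymphoid and myeloid cells, went the other way, at 1.56 (1.32 to 1.86) and 0.660 (0.553 to 0.787).

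The zipper partners were lower in IR. Of the 7 JUN and FOS genes, 6 were past the fold downward for IR over Control in all kept cells and 7 in Cd34 Adgrl4 cells, with median log2 ratios of -0.60 and -0.78. Of all genes tested, 32.1% and 26.5% were past the fold in these cells. Fosb (0.427), Fos (0.526) and Fosl2 (0.5997) led in all kept cells. Between IR+CBD and IR, Fosb (1.52) was past the fold upward in all kept cells and none was downward, against 16.9% of all genes. Of the 5 CREB coactivators 0 were past the fold in all kept cells in either comparison, against 32.1% and 16.9% of all genes. Crebbp, a histone acetyltransferase recruited by phosphorylated CREB, was lowest at 0.806 (0.791 to 0.821) for IR over Control. In Cd34 Adgrl4 cells Crebbp was past the fold, at 0.779 (0.755 to 0.804) for IR over Control, against 26.5% of all genes.

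Genes known as CREB targets were mostly lower in IR. Of 11 such genes, 10 were past the fold downward for IR over Control in all kept cells and 10 in Cd34 Adgrl4 cells, with median log2 ratios of -0.57 and -0.71, and 0 were past it upward. Of all genes tested, 32.1% and 26.5% were past the fold in these cells. Nr4a1, an early response nuclear receptor, had 83.8, 22.2 and 30.6 CPM in all kept cells, with ratios of 0.265 (0.256 to 0.274) and 1.38 (1.33 to 1.44), and Nr4a3 was at 0.268 for IR over Control. Between IR+CBD and IR, 3 of 11 were past the fold upward in all kept cells (Areg, Nr4a1 and Per1), against 16.9% of all genes, with a median of 0.19. JUN, FOS and NR4A genes are early response genes that cell handling also raises, and its part in these values was not tested.

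Of 10 upstream kinases, 1 was past the fold upward and 2 downward for IR over Control in all kept cells, a share near the 32.1% of all genes. Eif2ak2, the double-stranded RNA sensor of the eIF2 kinases, had 31.2, 50.1 and 33.2 CPM, with ratios of 1.61 (1.56 to 1.66) and 0.662 (0.641 to 0.684). Its IR level stood apart from both other libraries. Mapk8 (JNK1) was past the fold downward for IR over Control at 0.783 (0.758 to 0.808), as was Mapk11 (0.687), though with median ratio scaling 1 kinase was past it downward, and Eif2ak2 was the sole kinase past it for IR+CBD over IR. The 25 ATF4 targets had 2 past the fold upward and 5 downward for IR over Control, with a median log2 ratio of -0.15, and 3 upward and 1 downward for IR+CBD over IR, with a median of 0.01. These 7 and 4 of 25 stood beside 32.1% and 16.9% of all genes, and with median ratio scaling 4 were upward and 5 downward for IR over Control. Asns, asparagine synthetase, was highest at 1.75 (1.70 to 1.81), and in Cd34 Adgrl4 cells it was at 1.02 (0.953 to 1.10), inside the fold. Vldlr was lowest at 0.213 (0.186 to 0.243).

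Of 23 ER chaperone and degradation genes, 0 were past the fold upward and 1 downward for IR over Control in all kept cells, with a median log2 ratio of -0.08. That gene was Xbp1, a factor of the unfolded protein response (0.752, 0.734 to 0.771), and 0 of 23 were past the fold for IR+CBD over IR. The shares past the fold over all genes tested were 32.1% and 16.9%. In Cd34 Adgrl4 cells the median of the list was 0.09 for IR over Control, with Pdia6 at 1.24 (1.22 to 1.254), Pdia4 at 1.21 (1.18 to 1.246) and Sdf2l1 at 1.21 (1.18 to 1.23), inside the fold. In the same cells Herpud1 and Dnajb9 were past it downward (0.795 and 0.775) for IR over Control, and Derl3 upward at 1.32 with an interval that held 1 (0.980 to 1.79), while with median ratio scaling 3 were past it upward and 1 downward. The share of all genes past the fold there was 26.5%. Of the 6 mitochondrial stress proteins, Hspe1 was past the fold upward for IR over Control in all kept cells (1.31, 1.30 to 1.32), against 32.1% of all genes. For IR+CBD over IR 0 were, against 16.9%.

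The genes described next, which the study placed under Atf2 in stem cells, were chosen on these libraries, so they are not independent evidence. Nr4a1, Ski and Rgs18 were past the fold downward for IR over Control, and Nr4a1 and Ski upward for IR+CBD over IR, in all kept cells. Of all genes tested, 32.1% and 16.9% were past it in these comparisons. Lrp6, a Wnt coreceptor, had 32.5, 29.0 and 30.7 CPM in all kept cells, with ratios of 0.894 (0.863 to 0.926) and 1.06 (1.02 to 1.10). The IR-to-Control interval of Lrp6 lay below that of Atf2. In stem-marker cells Lrp6 had 43.4, 39.9 and 38.7 CPM, with ratios of 0.919 (0.833 to 1.01) and 0.969 (0.863 to 1.09), and its IR+CBD level was not above its IR level. These cells were wider than the stem cells of the study. Ski had 35.0, 17.9 and 23.3 CPM in all kept cells, with ratios of 0.511 (0.490 to 0.532) and 1.30 (1.245 to 1.36). Rgs18 was at 0.740 and 1.12.

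Long genes and nuclear RNAs were lower in IR as well. Genes spanning over 50 kb in RefSeq had a median log2 ratio of -0.13 for IR over Control and 0.03 for IR+CBD over IR in all kept cells, against 0.01 and -0.02 for genes of 10 kb or less, with spans known for 82.1% of the genes tested. Atf2 spans 76.2 kb, Creb1 71.8 kb, Crem 71.4 kb and Atf6 164.1 kb, while Atf4, Atf5 and Ddit3 span 2.36, 4.40 and 5.50 kb. Of the nuclear RNAs, Malat1 was at 0.820 (0.818 to 0.823) for IR over Control, and Neat1 was past the fold at 0.775 (0.764 to 0.786). The file headers name a Cell Ranger version that counts intronic reads by default, and the part of gene length and nuclear RNA in the members' values was not tested.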

How the data were processed

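The authors deposited, for 3 droplet libraries (10x 3′ chemistry), matrices of raw UMI counts per gene and barcode, with no normalization. Their processing notes name Cell Ranger 4.0 and GRCm39, and the matrix headers name version 7.0.1. From these counts, cells with at least 200 genes and at most 5% mitochondrial UMIs were kept, as in the study's methods, except that predicted doublets were kept. UMIs were summed per library and gate in pandas 2.3.3 and numpy 2.4.6 (Python 3.11.15), intervals came from scipy 1.17.1, and figures from matplotlib 3.10.9. Intervals cover counting error only, and log2 ratios of lists added 0.5 UMI. Library totals are in the report. Since each group is 1 library of 3 pooled mice, no test was made. The ratio and its interval were tested on simulated data with known folds. Doublets were scored with Scrublet in scanpy 1.11.5 for an alternative only. The members, gates, gene lists and alternatives were chosen with earlier results of these data known. Named genes were the members, genes the study placed under Atf2, at most the 3 highest and the 3 lowest of each list by the interval bound nearest to 1, the 5 genes most like Atf2, and gate and marker genes. Genes named beside a count outside this rule (Areg, Derl3, and the members of small counts) were chosen after their values were seen. Some genes of these lists are not reported here.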

Additional observations from a re-analysis of the deposited data

How the results depend on the processing

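No replicate exists, so no replicate could be left out, and no paired analysis was possible because each group is 1 library. Of 162 recomputed Atf2 ratios, 143 stayed inside the counting interval of the reported value. A reversal was counted only where the reported ratio was past the fold, which for Atf2 held in Siglech cells alone, and 0 were found. For IR over Control in Cd34 Adgrl4 cells, 10 of 15 alternatives kept Atf2 on the same side of 1. For IR+CBD over IR in Klf1 cells 9 of 11 did. Atf2 for IR over Control in all kept cells was 0.926 without the deepest 5% of cells, 0.975 with median ratio scaling and 0.897 with every cell weighted alike. For IR+CBD over IR it was 1.11 with every cell weighted alike and 1.12 with gates weighted by Control shares. In Retnlg cells the ratio for IR over Control was 0.758 without predicted doublets, 0.754 without cells in more than 1 gate and 0.784 with every cell weighted alike, and for IR+CBD over IR it was 1.16 without cells in more than 1 gate.

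In place of the Cd34 Adgrl4 gate, Atf2 for IR over Control was 1.05 without cells in more than 1 gate, 1.03 with 3 of 6 stem markers, 1.00 with Hlf and Mecom, 1.06 without Mpo cells and 1.04 with 3 of 6 markers and a minimum of UMIs per cell, the last 2 chosen after seeing the data. For IR+CBD over IR these were 1.00, 1.02, 1.02, 1.01 and 1.02. Relative to the other 9 members there, Atf2 for IR over Control was 1.19, 1.19, 1.18, 1.22 and 1.19, and for IR+CBD over IR 0.946 with 3 of 6 markers, 0.955 with Hlf and Mecom and 0.944 with that minimum as well. In all kept cells it was 0.974 for IR over Control with every cell weighted alike and 1.03 with weighted gates. Atf5 was at 1.62 for IR over Control without Mpo cells, on the other side of 1 from its value in the gate. The direction of Atf2 in this gate thus rests on which cells are taken, and the cause was not tested.

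With weighted gates 1 member was past the fold in each comparison in all kept cells (Crem, and Ddit3 at 1.28 for IR+CBD over IR), and without cells in more than 1 gate 1 was for IR+CBD over IR in Cd34 Adgrl4 cells. The count of genes past the fold depends on the UMI minimum. In all kept cells it was 4083 (25.8% of genes) at 200 UMIs and 13991 at 1 UMI per library for IR over Control, beside 6492, and 5304 at 20 UMIs, 1419 (9.15%) at 200 and 10532 at 1 for IR+CBD over IR, beside 3352. In Cd34 Adgrl4 cells it was 2576 at 200 and 12429 at 1 for IR over Control, beside 4497, and 4287 at 20, 1065 at 200 and 8827 at 1 for IR+CBD over IR, beside 2539. With median ratio scaling 0 CREB coactivators were past the fold in Cd34 Adgrl4 cells for IR over Control, beside 1, and with a 20 UMI minimum 7 ATF4 targets were for IR+CBD over IR, beside 4.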
